A study of Mus musculus with 16 samples.

Results

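Melanomas of the iMet mouse were compared with melanocytes free of disease, gene by gene, on expression arrays. The comparison uses 10 of the 16 arrays of the series: the 6 titled as iMet tumours and the 4 titled as melanocytes. The iMet mouse carries Tyr-rtTA, Tet-Met and Ink4a/Arf-/-, so that the tyrosinase promoter drives the tetracycline-dependent activator rtTA in pigment cells, rtTA can switch on a Met transgene, and the Ink4a/Arf tumour suppressor locus is deleted throughout the animal. For the melanocytes the labels give the disease state none and no genotype, treatment or age. The Ink4a/Arf deletion and the Met transgene therefore cannot be told apart in this comparison. The other 6 arrays, melanomas with activated HRAS in place of Met (Tyr-rtTA, Tet-HRASV12G, Ink4a/Arf-/-), entered the normalization, the choice of probe set and the estimate of spread, and a few of their values are given for context. The tumour labels name melanoma cells isolated from the mouse, whereas the design text names RNA from cutaneous melanomas. Whether each array of a group stands for its own animal is not labelled, and the p-values therefore measure only the spread between these samples, which may be technical. Values are quantile-normalized log2 signals, with arrays numbered as in their titles, and a gene counts as detected on an array above log2 6.21, the 40th percentile of all signals. Array signals of different genes are not levels per length, so only the same gene is compared between groups.

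Melanocytes arise from the neural crest, an embryonic cell population that also gives rise to Schwann cells, and make pigment in specialised organelles called melanosomes. Sox10, Pax3 and Mitf are transcription factors of this lineage, and Kit is its growth factor receptor. MET is the receptor tyrosine kinase for hepatocyte growth factor (Hgf), and it signals through adaptors such as Gab1 to the RAS-ERK cascade. A skin tumour also holds fibroblasts, vessels, immune cells and epidermis, whose messages enter an array of bulk RNA. In such RNA, more cells of a type and more message per cell cannot be told apart.

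Of 12393 genes with a probe set, 8263 were detected on at least 4 of the 10 arrays and tested. With limma at an adjusted p under 0.05, 1368 genes were higher in the iMet melanomas (16.6% of those tested) and 1607 were lower (19.4%), together 36%. Of these, 825 were higher by at least log2 1 (9.98%) and 472 lower by at least as much (5.71%). Counts of list members that rose or fell, given below, are to be read against the 16.6% and 19.4% of all tested genes. All 6 iMet arrays lay above all 4 melanocyte arrays for 12.7% of tested genes, and below them for 15.4%. The median difference over tested genes was −0.088. Centring each array on its median instead of quantile normalization moved that median to −0.23 and the share of called genes that were higher from 46% to 32.5%, with 1104 higher and 2293 lower, so the balance of directions rests on the scaling. Of the higher genes 326 (23.8%) were undetected on every melanocyte array, and of the lower genes 79 (4.92%) on every iMet array. These shares are not comparable, because a gene undetected in melanocytes passed the filter with 4 of 6 iMet arrays and a gene undetected in iMet needed all 4 melanocyte arrays.

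The iMet arrays resembled each other, with correlations across genes of 0.883 to 0.947, and correlated with the melanocyte arrays at 0.649 to 0.743. The melanocyte arrays formed pairs, 1 with 3 (0.962) and 2 with 4 (0.941), against 0.867 to 0.914 across the pairs. Keratinocyte markers were higher in the pair 2 and 4 and fibroblast markers in the pair 1 and 3. The signal of the Actb 3′ probe set over its 5′ probe set, which rises as RNA or its copies shorten, was 0.16 ± 0.0712 (SD, n = 6) in iMet and −0.00322 ± 0.0484 (SD, n = 4) in melanocyte arrays (two-sided exact permutation p = 0.00476, the smallest that 210 splits allow), while the same measure for Gapdh gave p = 0.667. Its part in the results was not tested.

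The arrays labelled melanocyte carried neural crest genes but few pigment genes. Of 12 melanosome and pigment genes with a probe set, 7 were too dim to test, among them Tyr, Tyrp1 and Dct, the enzymes of melanin synthesis, and Oca2. Tyr was at 5.32, 0.55, 4.61 and 5.38 on melanocyte arrays 1 to 4, and Dct at 4.83, 4.69, 2.18 and 5.05, all below the detection level. Sox10 was well detected there, at 9.99, 9.19, 10.41 and 9.04, and so were the epidermal keratins Krt5 (11.85, 13.69, 11.05 and 13.69) and Krt14 (12.47, 13.40, 11.54 and 13.49). The melanocyte arrays thus carried strong epidermal markers beside those of the neural crest lineage, and the defining pigment enzymes were undetected in both groups.

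The lineage genes moved in opposite directions, and genes of the Schwann cell and neural crest list showed some of the steepest losses on the array. Foxd3, a transcription factor of neural crest progenitors, was at 9.44, 8.49, 9.05 and 8.09 on the melanocyte arrays and at 1.46, 1.76 and 2.19 (lowest, median, highest) on the iMet arrays. It fell by 6.99 ± 0.30 (SE) on the log2 scale (adjusted p = 2.66e-10), from clear detection to below the detection level on all 6 iMet arrays. Sox2, a progenitor factor, was at 8.46, 6.96, 8.08 and 6.39 in melanocytes and at −1.96, 0.23 and 3.93 in iMet, a difference of −6.88 ± 1.14. Ngfr, the low-affinity neurotrophin receptor, fell by 4.84 ± 0.72 (melanocytes 9.42 to 11.48, iMet 4.42 to 6.18). Erbb3, the neuregulin receptor of crest-derived cells, fell by 4.22 ± 0.40 (melanocytes 9.47 to 10.87, iMet 4.89 to 6.62). Of 6 tested members of the Schwann cell and neural crest list, these 4 fell beyond overlap of the groups and none rose. The median difference of the list was −4.53, beside −0.088 for all genes.

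The same 4 calls stood without any single array, without either melanocyte pair, and in a fit that carried the mean keratinocyte and mean fibroblast marker level of each array as covariates. In that fit Foxd3 differed by −7.37 and Erbb3 by −4.67, larger in size than without the covariates. On the 6 melanomas with activated HRAS, Foxd3 was at 7.18 to 8.85, Sox2 at 6.24 to 9.52 and Erbb3 at 9.68 to 10.92, levels that overlap those of the melanocytes.

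Among the regulators of the melanocyte lineage, 3 of 9 tested members fell and 2 rose, beside 19.4% and 16.6% of all tested genes. Sox10, which maintains the lineage, was at 6.08, 6.86 and 7.66 on the iMet arrays and fell by 2.75 ± 0.38 (adjusted p = 6.93e-05; −4.72 with the mean of all its probe sets). Pax3, a partner of Sox10, was at 6.47, 6.42, 6.63 and 6.72 in melanocytes and at 3.34 to 5.55 in iMet, a difference of −1.77 ± 0.44 that took it below detection. Snai2, a zinc finger factor of migrating crest cells, fell by 1.45 ± 0.40, a call lost without either melanocyte pair. With keratinocyte and fibroblast markers as covariates, where standard errors were larger, 1 decrease stayed called, that of Sox10. In that fit Pax3 differed by −1.47 and Snai2 by −1.85, and neither was called. Mitf, the master regulator of pigment cells, went the other way, from 5.38, 5.64, 6.02 and 5.63, below detection, to 6.80, 7.54 and 8.21, a rise of 1.89 ± 0.31 (adjusted p = 0.00029). Kit rose by 4.41 ± 0.63 (melanocytes 1.45 to 4.69, iMet 6.06 to 7.81). Mast cells make both Mitf and Kit and macrophages make Mitf. Markers of both cell types rose, as given below, and their part in the rise was not tested.

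Of the pigment genes bright enough to test, 3 of 5 fell and none rose. Mlph, which links melanosomes to the actin motor, was at 9.16, 7.59, 8.65 and 6.83 in melanocytes and at 3.48 to 5.46 in iMet, a difference of −3.38 ± 0.47 (adjusted p = 7.8e-05). Rab38, a small GTPase of melanosome biogenesis, fell by 1.99 ± 0.42, and Pmel, the fibril protein of the melanosome, by 1.17 ± 0.32. All 3 separated the groups without overlap. The calls held without any single array, but those of Rab38 and Pmel were lost without melanocyte arrays 2 and 4 together, and that of Pmel with the values as deposited (−0.94, adjusted p = 0.064), which left 2 of the 5. With keratinocyte and fibroblast markers as covariates Rab38 differed by −0.73 and Pmel by −0.81 and neither was called, while Mlph remained called at −4.53. The transporter Slc45a2 did not pass the test (−0.40 ± 0.16). It was called lower, at a difference of the same size, with each array centred on its median.

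**Figure D1:**
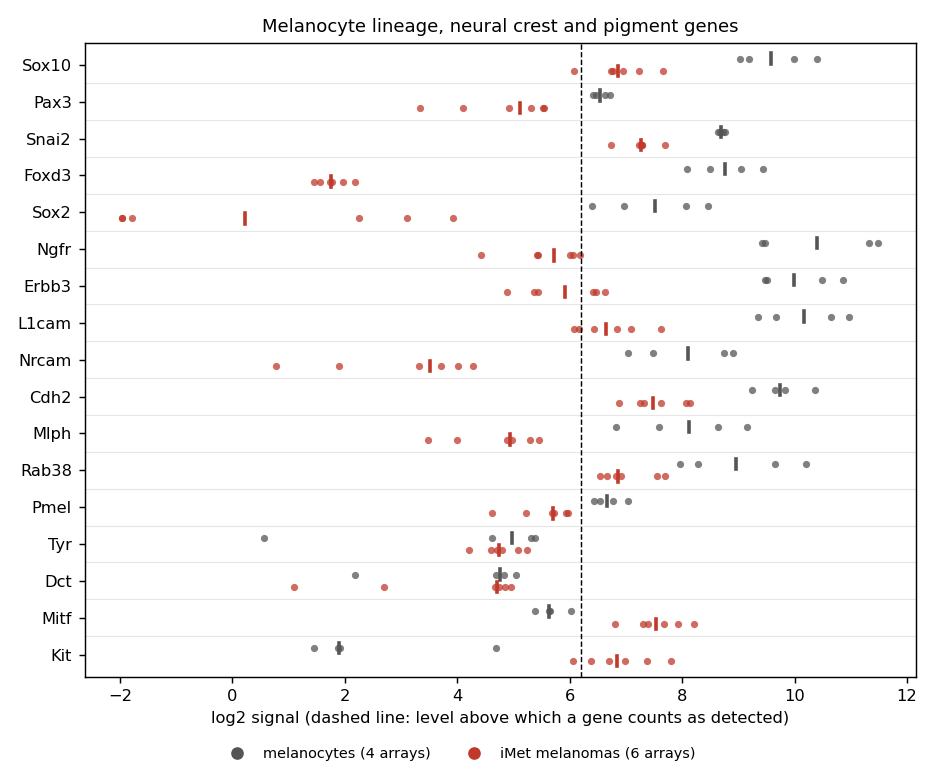
Log2 signal (horizontal axis) of lineage, neural crest, neural adhesion and pigment genes on each melanocyte array (grey points, n = 4) and each iMet melanoma array (red points, n = 6). Short vertical lines are group medians, and the dashed line is the detection level of log2 6.21. Foxd3, Sox2, Ngfr and Erbb3 drop without overlap, Tyr and Dct stay below the line in both groups, and Mitf and Kit cross it upwards.

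Further genes that fell are named for the size of their decrease or as members of the adhesion and mesenchymal lists, and they are not a list of their own. L1cam, a neural adhesion molecule, was at 10.65, 9.67, 10.97 and 9.36 on the melanocyte arrays and at 6.07, 6.64 and 7.63 on the iMet arrays, a difference of −3.46 ± 0.35 (adjusted p = 3.62e-06). Nrcam, of the same immunoglobulin family, fell by 5.04 ± 0.61, and Ncam1 by 1.53 ± 0.40. Cdh2, or N-cadherin, fell by 2.22 ± 0.28 (melanocytes 9.24 to 10.37, iMet 6.87 to 8.14). Fabp7, a brain and glial fatty acid binding protein, fell by 5.39 ± 0.86 and Ndn, the imprinted growth suppressor necdin, by 5.24 ± 0.81. Each of these 6 genes separated the groups without overlap and stayed called with keratinocyte and fibroblast markers as covariates, at −4.28 for L1cam and −2.57 for Cdh2. The call of Ncam1 was lost without melanocyte arrays 1 and 3 together (−0.94, adjusted p = 0.149). Alcam, also of the immunoglobulin family, rose, as given below.

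Met, the engineered receptor, was higher on most but not all iMet arrays, and its ligand Hgf on all 6. Met was at 7.85, 8.91, 7.25 and 9.13 on the melanocyte arrays and at 9.60, 8.39, 9.69, 9.98, 9.67 and 9.49 on iMet arrays 1 to 6. The groups overlapped, because iMet array 2 lay below melanocyte arrays 2 and 4. The difference was 1.18 ± 0.44 (adjusted p = 0.0455; two-sided exact permutation p = 0.0333), and it was not called without melanocyte array 1 or 3 or without iMet array 1, 3, 4, 5 or 6, over a range of 0.84 to 1.46. Nor was it called with each array centred on its median (1.02), with no filter on dim genes (1.18), without melanocyte arrays 1 and 3 (0.45) or with the replicate number as a block (1.05). Whether the Met probe set reads the transgene message was not examined. Hgf was at 5.03, 4.86, 5.17 and 5.21, undetected, on the melanocyte arrays and at 6.17, 8.24 and 8.63 on the iMet arrays, a rise of 2.89 ± 0.41 that kept its call without any single array. Hgf is classically a product of fibroblasts and other stromal cells, whose markers also rose. On the 6 melanomas with activated HRAS, Hgf was undetected, at 4.09 to 5.74. Their fibroblast list mean was 10.67 to 11.89, beside 10.97 to 11.67 on the iMet arrays. The source of Hgf was not tested. Cdkn2a, the gene of the deleted Ink4a/Arf locus, was undetected in both groups, at 3.68 to 5.03 and 1.08 to 4.66, so the array gives no check of the deletion. No probe set represented Hras.

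Of 13 tested members of the MET signalling list, 2 rose (Met and Hgf) and 5 fell, beside 16.6% and 19.4% of all tested genes. Gab1, the docking protein through which MET recruits its effectors, fell by 1.45 ± 0.29 (melanocytes 8.92 to 9.75, iMet 7.27 to 8.32). Src fell by 0.94 ± 0.20 and Ptpn11, the phosphatase SHP2, by 0.76 ± 0.21. Spint2, an inhibitor of the proteases that activate HGF, fell by 2.04 ± 0.56 (melanocytes 8.54, 9.20, 7.72 and 9.06, iMet 5.42, 6.73 and 7.25). Sos1 fell by 0.76 ± 0.27, a call lost in 8 of the 10 fits without a single array, those without any 1 melanocyte array or iMet array 1, 2, 5 or 6. None of these 5 decreases stayed called with keratinocyte and fibroblast markers as covariates, where Gab1 differed by −1.25, Src by −0.74, Ptpn11 by −0.93, Spint2 by −0.93 and Sos1 by −0.48 and standard errors were larger. Without melanocyte arrays 1 and 3 together 3 of the 5 stayed called, and without 2 and 4 together 2. The adaptors Grb2, Shc1 and Crk did not pass the test, with differences of −0.19 ± 0.11, 0.27 ± 0.17 and −0.10 ± 0.15.

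Genes switched on by RAS-ERK signalling rose in 7 of 14 tested cases and none fell, with a list median of 0.73. Fosl1, an AP-1 subunit that accumulates under sustained ERK activity, was at 8.23, 6.55, 7.13 and 5.80 on the melanocyte arrays and at 9.07, 9.66 and 9.98 on the iMet arrays, a rise of 2.63 ± 0.43 (adjusted p = 0.00028). Dusp6, the phosphatase that switches ERK off, rose by 1.57 ± 0.29, Ccnd1, the G1 cyclin D1, by 1.07 ± 0.23, and Spred1, a RAS inhibitor, by 1.10 ± 0.16. Fos rose by 0.79 ± 0.22. Their groups did not overlap. Etv4 and Etv5, ETS factors induced by the pathway, rose by 2.06 ± 0.74 and 1.20 ± 0.38, but the melanocyte values of Etv4, 8.47, 6.02, 7.87 and 3.58, split by pair, and neither call held without melanocyte array 2 or 4. That of Etv4 was also lost without iMet array 1, 2, 3, 4 or 6. Egr1, Spry1, Spry2 and Myc did not pass the test, with differences of 0.66 ± 0.38, 0.039 ± 0.37, −0.15 ± 0.23 and −0.059 ± 0.23. Without melanocyte arrays 2 and 4 the list had 4 genes higher, and with keratinocyte and fibroblast markers as covariates 1, Spred1 at 0.68. In that fit Fosl1 differed by 2.11 (adjusted p = 0.055) and Fos by 0.88. With each array centred on its median 6 rose and 1 fell, and Ccnd1 was not called (0.72, adjusted p = 0.066). Errfi1, a feedback inhibitor of the EGF receptor family outside this list, rose by 3.92 ± 0.31 (melanocytes 8.16 to 8.89, iMet 11.31 to 13.06), and kept its call with those covariates at 4.14.

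Of 11 tested immediate early genes, 2 rose and 2 fell, shares near the 16.6% and 19.4% of all tested genes. Zfp36 rose by 1.16 ± 0.27 and Nr4a2 by 0.94 ± 0.29, and Nr4a1 fell by 1.22 ± 0.35 and Atf3 by 2.06 ± 0.71. The Nr4a2 call was lost without melanocyte array 2 or 4, and those of Nr4a1 and Atf3 without melanocyte array 1 or 3, that of Atf3 also without iMet array 3 or 6. Jun differed by 0.52 ± 0.21 and Junb by 0.09 ± 0.30, neither past the test.

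The p53 target genes leaned downward. Of 15 tested, 11 fell and 1 rose, beside 19.4% and 16.6% of all tested genes, and the list median was −1.0. Pmaip1, which encodes the pro-apoptotic protein NOXA, was at 9.13, 8.27, 8.43 and 8.84 on the melanocyte arrays and at 4.68, 6.0, 5.10, 5.90, 5.81 and 4.84 on iMet arrays 1 to 6, all undetected. It fell by 3.28 ± 0.35 (adjusted p = 5.29e-06). Phlda3, a repressor of AKT, fell by 1.60 ± 0.20 (melanocytes 11.15 to 11.96, iMet 9.68 to 10.47), and Zmat3, an RNA-binding p53 target, by 1.04 ± 0.20, both without overlap. Plk2 fell by 1.66 ± 0.38 and Aen by 0.73 ± 0.19. Mdm2, the ubiquitin ligase that degrades p53, fell by 1.46 ± 0.36, with melanocyte values of 9.67, 11.52, 9.89 and 11.91 that split by pair, and differed by 0.16 with keratinocyte and fibroblast markers as covariates. Cdkn1a, the cell cycle inhibitor p21, was at 11.16, 9.66, 11.61 and 9.22 in melanocytes, split by pair, and at 8.66 to 10.08 in iMet. It did not pass the test (−1.0 ± 0.41). It was called lower without melanocyte array 2 or 4 or both (−1.97), and with each array centred on its median (−1.22). With keratinocyte and fibroblast markers as covariates Cdkn1a was also called lower, at −2.18. Sesn1 rose by 1.02 ± 0.33, a call lost without melanocyte array 1 or 3 or iMet array 3. The list count fell to 7 without melanocyte array 1 or 3 and to 5 without both, and it was 10 with keratinocyte and fibroblast markers as covariates, where Pmaip1 differed by −3.10 and Phlda3 by −1.06. On the melanomas with activated HRAS, Pmaip1 was at 7.34 to 8.94.

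Mitotic genes were above the melanocyte mean in all 24 tested cases, though 7 passed the test. Mki67, the proliferation marker Ki-67, was at 8.47, 9.67, 8.52 and 8.92 in melanocytes and at 9.94, 10.19 and 10.58 in iMet, a rise of 1.32 ± 0.22 (adjusted p = 0.000369). Ccnb2, cyclin B2, rose by 1.58 ± 0.28 and Ttk, the spindle checkpoint kinase, by 0.86 ± 0.20. For these 3 genes every iMet array lay above every melanocyte array. Melanocyte array 2 stood apart, with a mean over the 24 genes of 9.49 against 8.01, 8.0 and 8.20 on melanocyte arrays 1, 3 and 4, and 8.74 to 9.46 on the iMet arrays. Without it 17 of 24 genes rose. Without melanocyte array 1, 3 or 4 or iMet array 1 the count was 3, and without iMet array 2, 3 or 4 it was 4. Prc1, Bub1b, Kif11 and Top2a also rose, by 0.88 ± 0.29, 0.86 ± 0.32, 0.64 ± 0.24 and 0.94 ± 0.33, and each of these calls was lost without melanocyte array 1, 3 or 4 or iMet array 1. Those of Bub1b, Kif11 and Top2a were also lost without iMet array 2, 3 or 4, that of Bub1b without iMet array 5 and that of Kif11 without iMet array 6. Centring on the array median left 3 of the 24. Ndc80 did not pass the test (0.32 ± 0.30). The spindle genes Aurka, Plk1 and Kif20a did not pass the test, at 0.25 ± 0.38, 0.24 ± 0.35 and 0.017 ± 0.33. The count stood at 7 with keratinocyte and fibroblast markers as covariates, where Mki67 differed by 1.73.

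DNA replication genes showed no such lean. Of 23 tested, 1 rose and 2 fell. Pola1, the catalytic subunit of DNA polymerase alpha, rose by 0.93 ± 0.22 (melanocytes 6.45 to 7.32, iMet 7.34 to 8.13). Rrm2 and Chaf1b fell by 1.10 ± 0.38 and 0.97 ± 0.37, and both calls were lost without melanocyte array 2 or 4, that of Rrm2 also without melanocyte array 1 or iMet array 2, 5 or 6, and that of Chaf1b without any 1 iMet array. The DNA ligase Lig1 did not pass the test (0.46 ± 0.27). Pcna, the replication clamp, differed by 0.065 ± 0.20 and Mcm2 by −0.14 ± 0.28. Without melanocyte array 2 the count of genes that rose was 6.

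Among 15 tested regulators of the G1 phase, 3 fell and 1 rose. Ccnd2, cyclin D2, was at 12.66, 12.55, 13.04 and 13.06 on the melanocyte arrays and at 8.30, 9.39 and 10.15 on the iMet arrays, a difference of −3.45 ± 0.58 (adjusted p = 0.000361), while Ccnd1 rose as given above. Cdkn2c, the CDK4/6 inhibitor p18, rose by 1.56 ± 0.25 (melanocytes 8.27 to 9.60, iMet 9.96 to 10.97). The other two that fell were Ccne1 (−0.81 ± 0.27) and Cdkn2b (−0.93 ± 0.35), the neighbour of the deleted locus. The Ccne1 call was lost without melanocyte array 1 or 2 or iMet array 2 or 4, and the Cdkn2b call without melanocyte array 1 or 3 or iMet array 1, 2, 3, 4 or 5. Cdk4 and Rb1 did not pass the test, at −0.19 ± 0.17 and −0.49 ± 0.28.

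**Figure D2:**
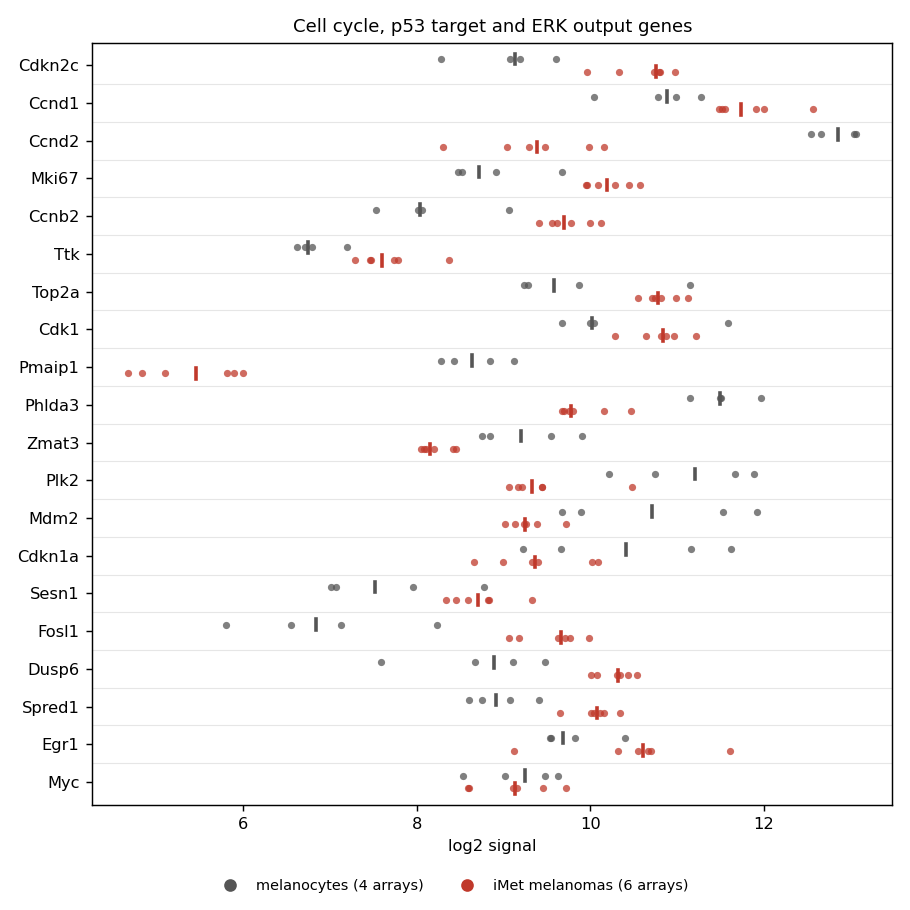
Log2 signal (horizontal axis) of cell cycle genes, p53 targets and genes induced by ERK signalling on each melanocyte array (grey points, n = 4) and each iMet melanoma array (red points, n = 6), with group medians as short vertical lines. Pmaip1, Phlda3, Zmat3 and Ccnd2 lie lower in iMet without overlap, Fosl1, Dusp6 and Spred1 higher without overlap, and Cdkn1a, Egr1 and Myc overlap.

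Of 15 tested members of the unfolded protein and amino acid stress list, 3 fell and 2 rose, with the share that fell near the 19.4% of all tested genes. The 3 that fell were targets of the amino acid stress response. Asns, asparagine synthetase, was at 11.57, 11.04, 11.73 and 10.91 on the melanocyte arrays and at 9.02, 9.45 and 9.69 on the iMet arrays, a difference of −1.91 ± 0.20 (adjusted p = 4.79e-06). Chac1, which degrades glutathione, fell by 2.34 ± 0.28 (melanocytes 9.30, 8.60, 9.22 and 8.84, iMet 5.68 to 7.19). Trib3, a pseudokinase, fell by 1.78 ± 0.39. All 3 are known targets of the stress-induced factor ATF4, separated the groups without overlap, and stayed called with keratinocyte and fibroblast markers as covariates at −2.19, −2.50 and −2.49. The Trib3 call was lost without melanocyte arrays 1 and 3 together (−1.08). Their promoters are shown because they moved together: the core of the amino acid response element, TGATGNAA on either strand, the only motif searched, lies within 250 bases before to 50 bases after the start of 4 of 14 list members with a RefSeq promoter (GRCm38.p6), against 3.97% of 32851 promoters. The list count is of genes with a match in any of their promoters and the percentage is of single promoters, so the shares differ in unit. Capitals mark the 8 bases of the match, as written on the gene's strand.
Asns, chr6:7693210-7693258, minus strand: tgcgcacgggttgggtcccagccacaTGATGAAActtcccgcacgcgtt
Chac1, chr2:119351023-119351082, plus strand: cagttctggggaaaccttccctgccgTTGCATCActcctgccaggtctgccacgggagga
Trib3, chr2:152344028-152344057, minus strand: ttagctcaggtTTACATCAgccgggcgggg
Herpud1, chr8:94386291-94386350, plus strand: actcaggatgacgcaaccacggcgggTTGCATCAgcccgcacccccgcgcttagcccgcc
Counted from the start, the match begins at base −23 in Asns, −193 in Chac1, −112 in Herpud1 and 15 in Trib3. A match is a description of letters and not a binding site. The motif was chosen after the values were seen. Herpud1, an endoplasmic reticulum stress gene with a match, did not pass the test (−0.059 ± 0.27), nor did Atf4 itself (−0.38 ± 0.18) or Ddit3, its partner CHOP (−0.10 ± 0.52). The 2 that rose were the chaperone Hsp90b1 by 0.41 ± 0.13 and the disulphide isomerase Pdia6 by 0.65 ± 0.21. The Hsp90b1 call was lost without melanocyte array 1 or 2, and the Pdia6 call without melanocyte array 3 or 4 or iMet array 1 or 5. Neither was called with the values as deposited, with the mean of all probe sets or with each array centred on its median, where Hsp90b1 differed by 0.13 and Pdia6 by 0.39.

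Macrophage genes gave the largest increases among genes whose groups did not overlap. All 15 listed markers were tested, all 15 rose, and every iMet array lay above every melanocyte array for each, with a list median of 6.6. C1qa, a chain of complement C1q made by macrophages, was at 1.80, 1.43, 2.66 and 2.64 on the melanocyte arrays, below detection, and at 12.09, 12.25, 12.74, 12.87, 12.26 and 12.39 on iMet arrays 1 to 6, a difference of 10.30 ± 0.40 (adjusted p = 7.75e-11). C1qc and C1qb rose by 9.36 ± 0.36 and 8.61 ± 0.55, the protease Ctss by 9.19 ± 0.46 and the Fc receptor Fcgr3 by 8.76 ± 0.34. Mrc1, the mannose receptor, rose by 7.17 ± 0.34, Lyz2, lysozyme, by 6.60 ± 0.43 and Csf1r, the receptor for the macrophage growth factor CSF1, by 5.21 ± 0.52. The list mean was 3.98 to 4.35 on melanocyte arrays and 10.41 to 11.11 on iMet arrays. Of the 15 markers, 10 were undetected on every melanocyte array. Where a group lies at background, the fold is a difference of signals and not a measured ratio of messages.

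Vessel markers were nearly as uniform. Of 12 tested endothelial genes, 10 rose and none fell, with a list median of 2.65, and these 10 separated the groups without overlap. Pecam1, the junction protein CD31, was at 2.81, 2.48, 3.20 and 4.52 in melanocytes and at 7.84, 8.72 and 9.68 in iMet, a rise of 5.38 ± 0.39. Tie1, an endothelial receptor kinase, rose by 5.94 ± 0.49, Emcn by 4.49 ± 0.54 and Esam by 4.09 ± 0.38. Eng and Flt1 did not pass the test, at 0.23 ± 0.35 and 0.37 ± 0.67. Among pericyte and smooth muscle genes 4 of 8 rose and 2 fell. Rgs5, a pericyte regulator of G protein signals, rose by 5.25 ± 0.38, the channel Kcnj8 by 3.91 ± 0.75, the proteoglycan Cspg4 by 2.88 ± 0.40 and Notch3 by 1.45 ± 0.30. The contractile genes Tagln (−3.91 ± 0.98) and Acta2 (−1.92 ± 0.66) fell, and the call of Acta2 was lost without any 1 melanocyte array or iMet array 2 or 5. Cd34 and Cd93, found on endothelial and progenitor cells, rose by 8.33 ± 0.59 and 8.33 ± 0.37, and Mme, the membrane protease neprilysin, by 8.58 ± 0.58.

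Macrophage and endothelial levels followed the groups so closely that they could not be separated from them. With both means as covariates, which held 99.5% of the variance of the group among the 10 arrays, the median standard error grew 5.87-fold and 4 genes were called higher and 8 lower. With keratinocyte and fibroblast means as covariates, which held 63.2% of it, the median standard error grew 1.56-fold and 648 genes were called higher and 590 lower, of which 549 and 451 were among the original calls. Changes in the tumour cells and changes in macrophage or vessel content therefore cannot be told apart for genes that both make.

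Fibroblast markers rose against melanocyte arrays that differed among themselves. Of 13 tested, 8 rose and none fell, with a list median of 1.73. Pdgfra, the receptor of platelet-derived growth factor on fibroblasts, was at 7.79, 6.57, 9.80 and 6.78 in melanocytes and at 12.11, 12.40 and 12.61 in iMet, a rise of 4.65 ± 0.45 (adjusted p = 2.18e-06). The matrix proteoglycans Dcn and Lum rose by 4.41 ± 0.48 and 4.33 ± 0.83, and the collagen Col3a1 by 2.61 ± 0.74. Col1a1, the main fibrillar collagen, was at 13.67, 11.90, 13.71 and 11.12 in melanocytes and at 12.74 to 13.63 in iMet and did not pass the test (0.62 ± 0.41). Without melanocyte arrays 1 and 3 together it was called higher (1.71). With keratinocyte and fibroblast means as covariates, the second of which includes Col1a1, it was called lower (−1.14). The list mean was 10.06, 8.30, 10.72 and 7.73 on melanocyte arrays 1 to 4 and 10.97 to 11.67 on iMet arrays. Without melanocyte array 2 or 4 the count was 4.

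Keratinocyte markers were the reverse case, with a wide spread among the melanomas. Of 11 tested, 7 fell and 1 rose, with a list median of −3.13. Krt5, a basal keratin, was at 11.85, 13.69, 11.05 and 13.69 in melanocytes and at 6.02, 10.90, 9.86, 5.33, 8.01 and 11.13 on iMet arrays 1 to 6. It fell by 4.03 ± 1.10 although iMet array 6 lay above melanocyte array 3. Perp, a desmosomal protein, fell by 3.13 ± 0.79 and Trp63, the basal epidermal regulator, by 3.78 ± 1.16. Krt1, a keratin of differentiated layers, rose by 4.78 ± 1.52, with values of 5.91, 11.68, 8.64, 4.33, 6.28 and 12.45 on iMet arrays 1 to 6. The calls of Trp63 and of Krt1 each rest on single arrays, being lost without melanocyte array 2 or 4 for Trp63 and without melanocyte array 3 or 4 or iMet array 2 for Krt1. The list mean was 10.23 and 10.52 on iMet arrays 2 and 6 and 5.19 and 4.86 on arrays 1 and 4, whereas melanocyte arrays ran from 7.85 to 10.17. The count of genes that fell was 2 to 4 without melanocyte array 1, 2 or 4 or iMet array 1, 4 or 5, 3 in a fit of the 10 arrays alone and 0 without melanocyte arrays 2 and 4 together, where Krt5 differed by −2.91.

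**Figure D3:**
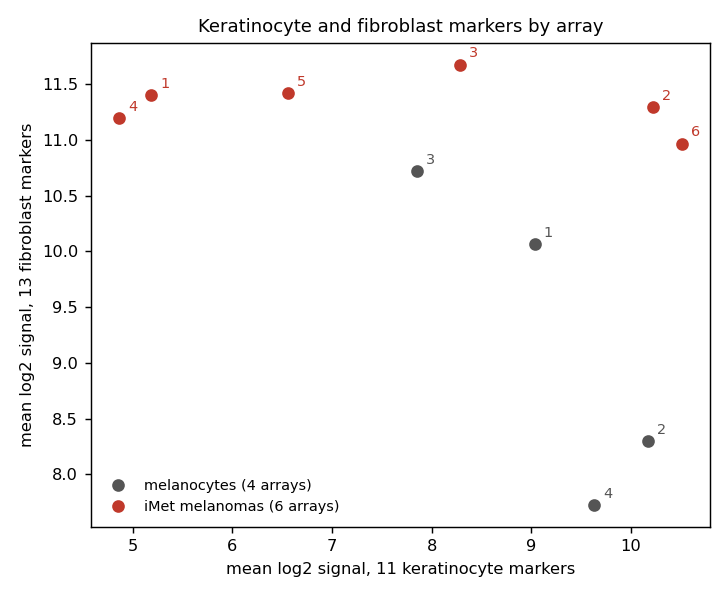
Mean log2 signal of 11 keratinocyte markers (horizontal axis) against that of 13 fibroblast markers (vertical axis) on each melanocyte array (grey, n = 4) and each iMet melanoma array (red, n = 6), numbered by array. Melanocyte arrays 1 and 3 lie apart from 2 and 4, and the iMet arrays share a high fibroblast level while their keratinocyte level spreads from 4.86 to 10.52.

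Other cell types differed from tumour to tumour. Skeletal muscle genes rose in 5 of 9 tested cases. The sarcomere protein Tnnc2 was at 1.41 to 1.64 in melanocytes and at 8.93, 7.44, 7.94, 3.78, 9.64 and 7.85 on iMet arrays 1 to 6, with array 4 the lowest, and it rose by 6.07 ± 1.31. The other four that rose were Ttn (3.69 ± 0.95), Tnnt3 (3.21 ± 0.95), Myh1 (3.79 ± 1.23) and Myh2 (3.45 ± 1.18), sarcomere proteins too. The Tnnt3 call was lost without melanocyte array 1 or 4, that of Myh1 without melanocyte array 1 or 2 or iMet array 1 or 5, and that of Myh2 without melanocyte array 1, 2 or 3 or iMet array 1, 2, 5 or 6. Without iMet array 4 the muscle count was 8, and without melanocyte array 1 or iMet array 1 or 5 it was 2 or 3. Neutrophil and mast cell genes rose in 4 of 7 tested cases, and in 7 without iMet array 4. S100a8 and S100a9, calcium-binding proteins of neutrophils, rose by 6.81 ± 0.99 and 7.85 ± 1.22, and Tpsb2, a mast cell tryptase, by 3.33 ± 0.77. The mast cell chymase Mcpt4 rose by 2.65 ± 0.97, a call lost without melanocyte array 1, 2 or 4 or iMet array 1, 2, 3 or 5. Fabp4, the fatty acid binding protein of adipocytes and endothelium, rose by 8.0 ± 0.87 (melanocytes 1.31 to 4.70, iMet 9.33 to 13.01), and Lipe, hormone-sensitive lipase, by 0.84 ± 0.26, a call lost without melanocyte array 2. Of the red cell genes Slc4a1 did not pass the test (1.75 ± 0.69), and Alas2, of red cell haem synthesis, rose by 6.22 ± 0.68. Slc4a1 was called higher with the values as deposited (2.13) and with each array centred on its median (1.91). The integrin Itgax and Cd83, of dendritic cells, rose by 2.12 ± 0.71 and 3.0 ± 0.83, and Flt3 did not pass the test (0.60 ± 0.30). The Itgax call was lost without melanocyte array 1 or 4 or iMet array 4 or 5.

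iMet array 5 carried the highest signals of a set of lymphoid, marrow and fat genes. No lymphocyte marker was bright enough for the test, but the B cell genes Cd79a, Cd79b and Ms4a1 reached 9.07, 8.88 and 10.24 on this array, with highest values of 5.59, 5.22 and 6.11 on the other 9. The granule genes Ngp, Camp and Mpo were at 12.12, 9.08 and 8.44 there, and Adipoq, the adipocyte hormone adiponectin, at 10.31. T cell genes were low throughout, with Cd3e at 3.18, 2.67, 2.82, 6.02, 5.14 and 4.10 on iMet arrays 1 to 6. Leaving out iMet array 5 gave 1265 genes higher and 1537 lower in the whole comparison.

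**Figure D4:**
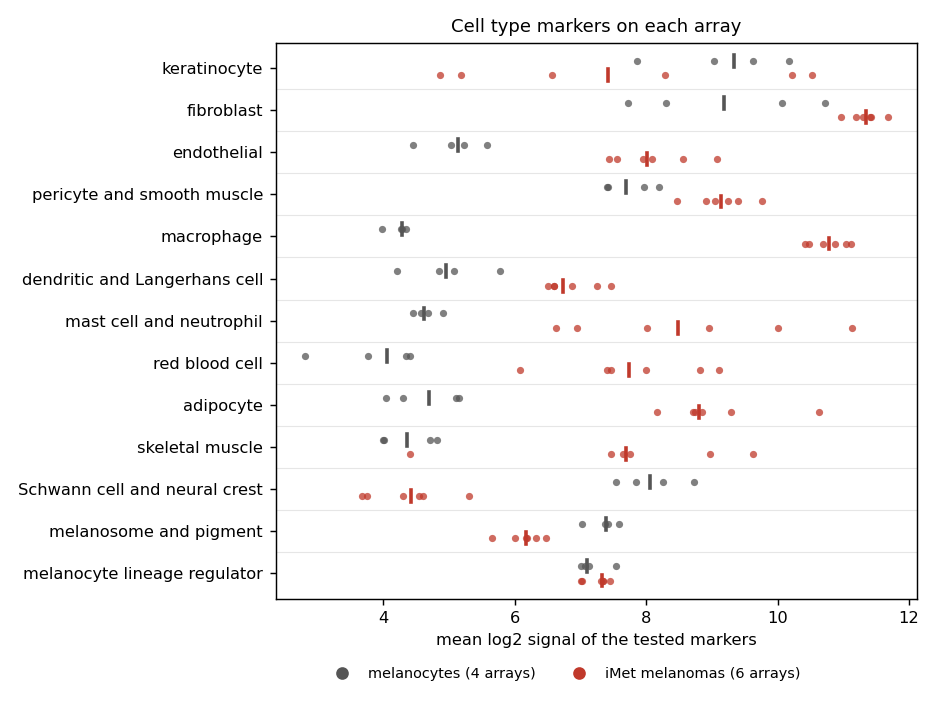
Mean log2 signal (horizontal axis) of the tested markers of 13 cell types on each melanocyte array (grey points, n = 4) and each iMet melanoma array (red points, n = 6), with group medians as short vertical lines. Macrophage and endothelial means separate the groups without overlap and with little spread. Keratinocyte, mast cell and neutrophil, and skeletal muscle means spread widely among the melanomas. The Schwann cell and neural crest means are lower in all 6.

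Immune effector genes rose with the macrophage markers. Of 14 tested genes of antigen presentation, 12 rose and none fell, with a list median of 2.07. H2-K1, a class I molecule that nearly all cells can carry, was at 10.63, 10.29, 10.52 and 9.34 in melanocytes and at 12.25, 12.94 and 13.19 in iMet, a rise of 2.58 ± 0.28. H2-Aa and Cd74, of the class II pathway of professional antigen-presenting cells, rose by 5.73 ± 0.82 and 5.28 ± 0.72, and Psmb8, an immunoproteasome subunit, by 4.93 ± 0.70. Of 19 chemokine and receptor genes 13 rose and none fell. The monocyte receptor Ccr1 rose by 5.66 ± 0.28, and the ligands Ccl6, Ccl9 and Ccl12 by 7.75 ± 0.47, 5.94 ± 0.48 and 7.18 ± 1.01. Of 8 complement genes 6 rose, Cfp (properdin) by 7.45 ± 0.46, Cfb by 4.02 ± 0.53, the C1 inhibitor Serping1 by 4.63 ± 0.58 and the receptor C3ar1 by 4.25 ± 0.31, while Cd59a, a membrane inhibitor of the attack complex, fell by 2.14 ± 0.33. Interferon-induced genes rose in 9 of 13 cases, Rsad2 by 2.48 ± 0.37, Irf1 by 1.54 ± 0.37, Oas1a by 3.21 ± 0.65 and Usp18 by 2.29 ± 0.54. The interferon list mean was highest on iMet array 2 (9.33) and lowest on iMet array 1 (6.82). With keratinocyte and fibroblast markers as covariates the antigen presentation count was 5, the chemokine count 8 and the interferon count 3. The part of macrophages in these increases was not tested.

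Of 15 tested lysosomal genes, 6 rose and 3 fell, the second a share near the 19.4% of all tested genes, and centring on the array median made it 4 and 4. The proteases Lgmn and Ctsh rose by 2.36 ± 0.23 and 3.15 ± 0.40. Of the subunits of the proton pump 2 fell, Atp6v1h by 0.83 ± 0.11 (melanocytes 9.36, 9.20, 9.39 and 9.13, iMet 8.21 to 8.57), and Atp6v0d1 by 0.92 ± 0.13 (melanocytes 10.86, 10.91, 10.94 and 10.98, iMet 9.82 to 10.38), while Atp6v1a overlapped between the groups and did not pass the test (−0.24 ± 0.25). Tfeb, a regulator of lysosome genes, fell by 0.47 ± 0.15, a call lost without melanocyte array 1 or 3 or iMet array 1 or 3 and with the values as deposited (−0.20). Atp6v1h and Atp6v0d1 stayed called with keratinocyte and fibroblast markers as covariates, at −1.04 and −0.94.

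Matrix genes moved in both directions. Of 25 tested collagen and matrix genes, 9 rose and 5 fell, beside 16.6% and 19.4% of all tested genes. Centring on the array median turned this split to 5 and 7. Thbs1, thrombospondin 1, was at 13.54, 13.13, 13.54 and 12.80 in melanocytes and at 7.79, 8.42 and 10.24 in iMet, a difference of −4.53 ± 0.49 (adjusted p = 6.15e-06). Tnc, tenascin C, fell by 2.75 ± 0.55. Fbln2, a fibulin, fell by 1.72 ± 0.35 (melanocytes 13.24, 13.56, 13.41 and 13.48, iMet 10.76 to 12.60). Eln, elastin, rose by 3.69 ± 0.73, Ogn, a small proteoglycan, by 3.81 ± 0.61 and Nid1, of the basement membrane, by 3.26 ± 0.69. The collagen Col12a1 fell by 2.27 ± 0.66. Fmod fell by 5.17 ± 1.38, with melanocyte values of 6.15, 11.09, 6.37 and 11.33 that split by pair. Without melanocyte array 2 the count of genes that rose was 5, and without array 4 it was 4. Among 21 tested genes for matrix proteases and their inhibitors, 5 rose and 1 fell, beside 16.6% and 19.4% of all tested genes. Adam8, a leukocyte metalloprotease, rose by 3.93 ± 0.29, the metalloproteases Mmp9, Mmp3 and Adam12 by 3.48 ± 0.60, 3.25 ± 0.78 and 1.63 ± 0.43, the cathepsin Ctsb by 1.70 ± 0.19, and Adamts5, an aggrecanase, fell by 1.83 ± 0.47. Of 15 integrins and adhesion receptors 4 rose and 5 fell, to be read against the same shares. Vcam1 and Icam1, which bind leukocytes, rose by 3.70 ± 0.87 and 2.24 ± 0.56, Alcam by 2.16 ± 0.69 and Itga9 by 1.06 ± 0.38, and the laminin receptor subunits Itga6 and Itga3 fell by 1.49 ± 0.29 and 1.61 ± 0.42. Itgb4, the epidermal partner of Itga6, fell by 1.65 ± 0.49, and the other 2 that fell were L1cam and Ncam1. The calls of Alcam and Itgb4 were lost without melanocyte array 2 or 4, and that of Itga9 without melanocyte array 1, 2 or 4 or iMet array 2, 3, 4 or 6. Without melanocyte array 2 or 4 the number of adhesion receptors that rose was 2. With keratinocyte and fibroblast markers as covariates, 2 matrix genes, 3 protease genes and 0 adhesion receptors were called higher. In that fit, where standard errors were larger, Thbs1, Tnc, Eln, Adam8, Ctsb and Adamts5 stayed called. The calls of Fbln2 (−1.38), Nid1 (0.54), Mmp3 (0.56) and Adam12 (0.54) were lost. So were those of Itga6 (−0.32), Itga3 (−0.96) and Itgb4 (0.22).

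Factors of the mesenchymal switch rose where Cdh2 fell. Of 11 tested, 4 rose and 1 fell, beside 16.6% and 19.4% of all tested genes. Twist1 was at 7.73, 5.73, 8.37 and 4.62 in melanocytes and at 9.26, 9.52 and 9.87 in iMet, a rise of 2.90 ± 0.53 (adjusted p = 0.000696). Snai1 rose by 2.02 ± 0.34, Tcf4 by 1.73 ± 0.29 and Zeb1 by 1.42 ± 0.23, all without overlap of the groups. These factors are also made by fibroblasts. None of the 4 was called with keratinocyte and fibroblast markers as covariates, at 0.92 for Twist1 and 1.16 for Zeb1. The probe sets of Zeb1 disagreed, and with the mean of all of them it differed by 0.17 (adjusted p = 0.73) and was not called. Vim, vimentin, was high in both groups and differed by 0.083 ± 0.092.

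Secreted growth regulators held the steepest fall of any gene whose groups did not overlap. Igfbp2, a binding protein of insulin-like growth factors, was at 12.88, 13.34, 12.51 and 13.53 on the melanocyte arrays and at 2.84, 5.16, 6.21, 5.07, 5.78 and 5.07 on iMet arrays 1 to 6, a difference of −8.04 ± 0.97 (adjusted p = 1.99e-05) that left it undetected on all 6. Its relatives Igfbp6 and Igfbp3 rose, by 5.82 ± 0.25 and 3.72 ± 0.41. Kitl, the ligand of Kit, rose by 2.36 ± 0.22 (melanocytes 7.29, 7.93, 6.89 and 7.28, iMet 9.25 to 10.17), and Fgfr1 by 1.93 ± 0.30. Erbb2, the dimer partner of Erbb3, fell by 1.12 ± 0.21 (melanocytes 7.87 to 8.51, iMet 6.93 to 7.52). Of 27 tested growth factors and receptors, 7 rose and 6 fell, beside 16.6% and 19.4% of all tested genes. Centring turned this split to 6 and 10, and the number that fell was 3 without iMet array 1 or 2. Igfbp2 differed by −7.77 and Kitl by 2.74 with keratinocyte and fibroblast markers as covariates, both called, and Igfbp6 and Igfbp3 stayed called. In that fit Fgfr1 differed by 0.94 and Erbb2 by −0.91, neither of them called, and 4 genes of the list were higher.

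Notch genes fell on balance. Of 10 tested, 5 fell and 2 rose, beside 19.4% and 16.6% of all tested genes, with a list median of −1.08. Hes1, the best known Notch target, was at 8.90, 9.10, 8.55 and 9.08 in melanocytes and at 6.76, 7.14 and 7.63 in iMet, a difference of −1.72 ± 0.20 (adjusted p = 1.67e-05). The ligands Jag1 and Dll1 fell by 1.47 ± 0.20 and 1.68 ± 0.36 and the target Heyl by 1.71 ± 0.44. Rbpj, the DNA-binding partner of activated Notch, rose by 2.04 ± 0.16 (melanocytes 9.02, 8.98, 9.35 and 9.23, iMet 10.85 to 11.39), and Notch2 by 0.75 ± 0.17, but with the mean of all its probe sets Notch2 differed by 0.047 (adjusted p = 0.91) and was not called. Jag2 fell by 1.13 ± 0.39, a call lost without melanocyte array 2 or 4 or iMet array 1, 2, 5 or 6. In the fit with keratinocyte and fibroblast markers 3 of the decreases held, with Hes1 at −1.40, and Dll1 differed by −0.33.

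In the TGF-beta and BMP list 5 of 19 rose and 4 fell. Tgfb2, the ligand, fell by 3.38 ± 0.31 (melanocytes 10.79, 10.01, 11.21 and 10.28, iMet 6.92 to 7.65), and the inhibitor Smad7 by 1.02 ± 0.25. Id1, a target of BMP signals, fell by 1.55 ± 0.51, a call lost without melanocyte array 1, 2 or 4 or iMet array 3 or 4, and the antagonist Fst by 2.14 ± 0.56. The receptor Tgfbr1 rose by 0.83 ± 0.26, a call lost without melanocyte array 1 or 2, and the latency protein Ltbp1 by 1.04 ± 0.27. The ligand Bmp2 rose by 4.48 ± 0.54, the co-receptor Tgfbr3 by 2.02 ± 0.31 and Ltbp2, a relative of Ltbp1, by 3.52 ± 0.72. In the WNT list 1 of 18 rose and 3 fell. Dkk2, a secreted WNT modulator, was at 5.75, 1.47, 6.33 and 1.51 in melanocytes and at 11.15, 11.42 and 12.14 in iMet, a rise of 7.71 ± 0.88 (adjusted p = 1.14e-05). Its melanocyte values split by pair, with array 3 alone above the detection level, and all 6 iMet arrays lay above them. The receptors Fzd7 and Fzd2 fell by 1.48 ± 0.20 and 0.89 ± 0.27, and Fzd6, which is not on the list, by 3.17 ± 0.40. Fzd8 fell by 0.77 ± 0.23, a call lost without melanocyte array 1 or 3. The Fzd2 call was lost without melanocyte array 3, which left Fzd7 as the sole member that fell. Dkk2 at 4.83 and Tgfb2 at −3.85 stayed called with keratinocyte and fibroblast markers as covariates, as did Bmp2, Tgfbr3, Fzd6 and Fzd7. In that fit the TGF-beta and BMP list had 2 genes higher and 2 lower, and the WNT list 1 lower. Calls were lost for Ltbp2 (0.91), Ltbp1 (0.56), Tgfbr1 (0.67), Smad7 (−0.49) and Fst (−2.35). Those of Fzd2 (−1.28) and Fzd8 (−0.96) were lost too, and Id1 turned to 0.083.

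Metabolic lists moved little, and the shares of the respiratory, ribosome and cholesterol lists that fell, like those of the G1, WNT and TGF-beta lists, were near the 19.4% of all tested genes. Of 19 tested glycolysis and hypoxia genes 2 rose and none fell. Egln3, a prolyl hydroxylase induced by hypoxia, was at 5.50, 5.25, 6.49 and 4.77 in melanocytes and at 8.41, 9.95, 8.27, 10.36, 8.27 and 8.11 on iMet arrays 1 to 6, highest on arrays 2 and 4, a rise of 3.39 ± 0.75, and the lactate exporter Slc16a3 rose by 2.86 ± 0.85. The enzymes Ldha, Pgk1 and Hk2 did not pass the test, at −0.36 ± 0.20, −0.34 ± 0.16 and 0.019 ± 0.34, nor did Vegfa (−0.57 ± 0.40), Adm (2.98 ± 1.15) or Pgam1 (−0.58 ± 0.23). Adm was called higher with the values as deposited (3.31), with each array centred on its median (3.09) and with the replicate block (3.77). Without melanocyte arrays 1 and 3 together Adm was called higher (4.68) and Pgam1 lower (−0.86). Pgam1 was also called lower in a fit of the 10 arrays alone. Respiratory chain subunits fell in 5 of 20 cases and rose in 1. Ndufa9, Ndufv1, Ndufs3 and Ndufb8 of complex I fell by 0.83 ± 0.16, 0.53 ± 0.12, 0.45 ± 0.13 and 0.35 ± 0.11, and Cox5b of complex IV by 0.47 ± 0.13. The Ndufb8 call was lost without melanocyte array 1 or iMet array 2. Cox6c rose by 0.41 ± 0.15, a call lost without any 1 array other than iMet array 6. Ribosome biogenesis genes fell in 3 of 15 cases, Nolc1 by 0.69 ± 0.19, Polr1a by 0.64 ± 0.17 and Pes1 by 0.55 ± 0.18, and rose in 1, Gnl3 by 0.68 ± 0.23. The Pes1 call was lost without melanocyte array 1 or 2, and that of Gnl3 without melanocyte array 2 or 4 or iMet array 1 or 3. Cholesterol synthesis genes fell in 4 of 17, among them Lss by 0.56 ± 0.19, Mvk by 0.66 ± 0.23 and Hsd17b7 by 0.93 ± 0.33. Dhcr7, the last enzyme of one branch, fell by 0.82 ± 0.18 and was the sole call in each fit without melanocyte array 1, 2 or 3 or iMet array 3, 4 or 5. No member of 10 tested HOX genes passed limma's test, and at unadjusted p under 0.05 the number was 0, with Hoxc8 at −1.19 ± 0.99, Hoxa5 at −1.10 ± 0.95, Hoxa9 at −1.06 ± 0.67 and Hoxd8 at −0.55 ± 0.57.

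Candidate genes of melanoma invasion, listed from what is known of the study, were measured for 4 members. Acp5, tartrate-resistant acid phosphatase, was at 4.14, 6.0, 4.70 and 3.85 in melanocytes and at 8.67, 9.31, 10.17, 12.26, 8.96 and 8.69 on iMet arrays 1 to 6, a rise of 5.0 ± 0.67. Vsig4, a complement receptor of resident macrophages, rose by 2.96 ± 0.54. Fscn1, the actin bundling protein fascin, fell by 0.90 ± 0.16 (melanocytes 12.90, 12.76, 12.29 and 12.70, iMet 11.45 to 11.96). Acp5 and Vsig4 are also expressed by macrophages, whose part could not be tested because macrophage levels followed the groups. With keratinocyte and fibroblast markers as covariates, a fit that carries no macrophage level, Acp5 and Vsig4 stayed called while Fscn1, at −0.80, did not.

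**Figure D5:**
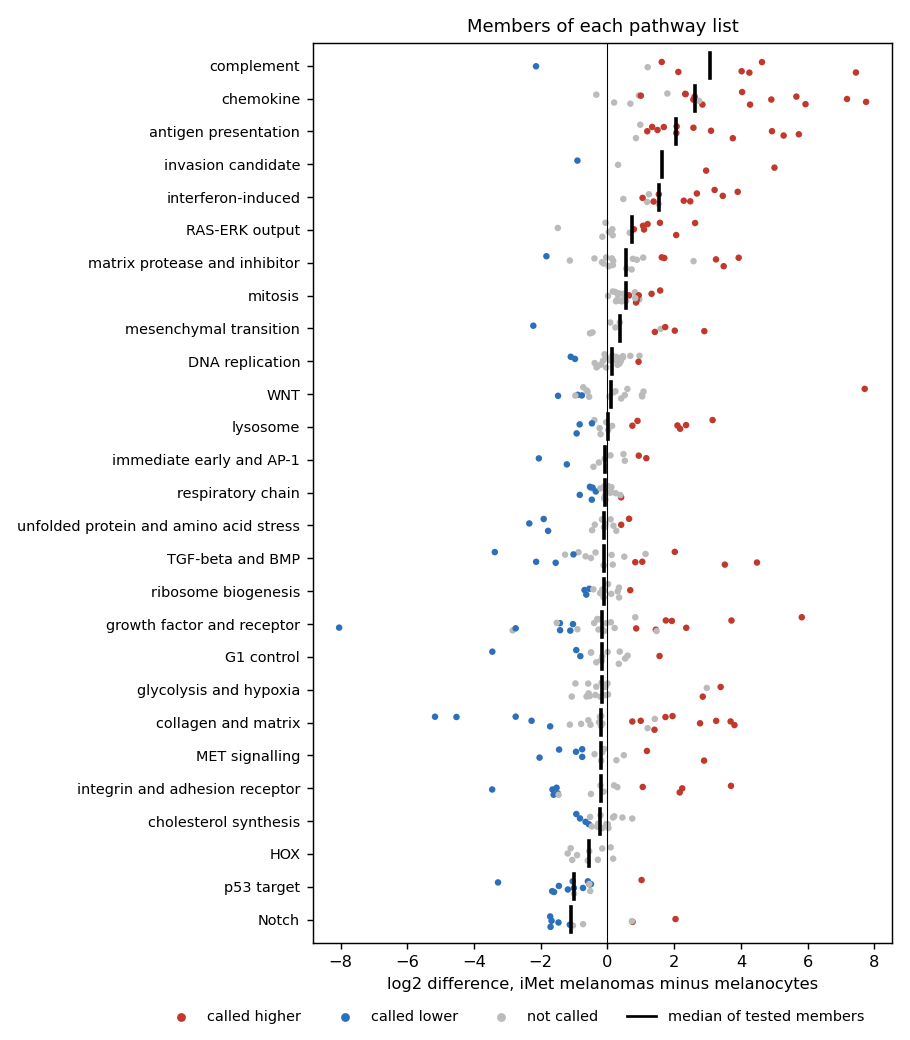
Log2 difference, iMet melanomas (6 arrays) minus melanocytes (4 arrays), of every tested member of the 27 pathway lists (points, red called higher, blue called lower, grey not called), with the list median as a black line and lists in the order of their medians. Complement, chemokine and antigen presentation genes lie furthest to the right, p53 target and Notch genes to the left, and the metabolic lists centre near 0.

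Among genes detected on all 10 arrays, where both sides of a difference were measured, the largest increases were again stromal in part. Lyz2, Csf1r and Pdgfra led, and Dcn, Errfi1, Ogn, Igfbp3 and Vcam1 were also among the 10 largest. Selenop, the selenium carrier, rose by 4.65 ± 0.31. Mt2, a metal-binding stress protein, rose by 4.18 ± 0.41 (melanocytes 7.53 to 9.26, iMet 11.34 to 13.20). The largest decreases were Thbs1, Tagln, Ccnd2 and Tgfb2, then Nxn, nucleoredoxin (−3.19 ± 0.32), Fzd6, Mgll, monoacylglycerol lipase (−3.14 ± 0.41), Fads3, a fatty acid desaturase family member (−3.08 ± 0.24), Basp1 (−2.90 ± 0.66) and the myosin light chain Myl9 (−2.86 ± 0.89). Fads3 was at 10.96, 11, 10.60 and 10.78 on the melanocyte arrays and at 7.48, 7.66 and 8.28 on the iMet arrays. Among all genes, the large decreases not yet named were Hs6st2, a heparan sulphate sulphotransferase (−5.94 ± 0.72), Adam23 (−5.10 ± 0.82), Celsr1, a planar polarity cadherin (−4.76 ± 0.74), and the potassium channel Kcna1 (−4.48 ± 0.63), and the large increases Lyz1 (8.61 ± 0.73), Srgn, the granule proteoglycan serglycin (8.52 ± 0.43), and Gpx3, plasma glutathione peroxidase (8.11 ± 0.35). Each gene of this paragraph kept its call without any single array. In the fit with keratinocyte and fibroblast markers as covariates, where standard errors were larger, 5 lost theirs: Tagln differed by −4.43, Myl9 by −3.28, Basp1 by −1.81, Ogn by 2.81 and Vcam1 by 1.32. The calls of Tagln and Myl9 were also lost without melanocyte arrays 1 and 3 together, and those of Myl9 and Vcam1 without 2 and 4 together.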

How the data were processed

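RNA extracted with Trizol and RNeasy was copied to biotin-labelled cRNA from an oligo-dT primer and hybridised to Affymetrix M430A_2 arrays, per the labels' protocols. The deposited values are on a log2 scale, from −4.07 to 14.5; the authors' background correction and summary method are not given in the sources used here. Of 22690 probe sets, 64 were controls, 1555 had no symbol and 691 several, and these were left out of the test. The log2 values were quantile-normalized over 16 arrays, and for each of 12393 genes the probe set with the highest mean was kept. Of 1129 called genes with another probe set, 7 had another probe set called the opposite way. Genes above log2 6.21 on at least 4 of the 10 arrays were tested with limma 3.58.1 in R 4.3.3 (lmFit and eBayes, 3 groups), with Benjamini-Hochberg adjustment at 0.05; figures used Python 3.11.15. Tested on simulated data for this contrast, over 8121 genes, the fit recovered 69.1% of changes of log2 1 and 92.3% of log2 2, with 3.87% false calls. The simulated noise was independent between genes and arrays, without array pairs or shared shifts of cell content. Only 94 and 91 tested genes were changed by these sizes, whereas 36% of tested genes were called in the data. The rates therefore do not measure the errors of the real calls. Alternatives were the deposited scaling, median centring, no filter, the mean of probe sets, the 10 arrays alone, each array or melanocyte pair left out, a replicate block, and marker means as covariates. Members and gene lists were chosen with earlier results of these data known. Named genes were the 12 largest increases and decreases whose groups did not overlap, the 10 largest of each among genes detected on all 10 arrays, the engineered genes, and of each list up to 4 members of smallest p, up to 2 called against its direction, and the members behind counts of 5 or fewer. 52 further genes were named after their values were seen: Adipoq, Aen, Atf4, Atp6v1a, Aurka, Bub1b, Camp, Cd3e, Cd79a, Cd79b, Cdk4, Cdkn1a, Col1a1, Crk, Dct, Ddit3, Egr1, Eng, Etv4, Etv5, Fgfr1, Flt1, Fos, Grb2, Herpud1, Hk2, Jun, Junb, Kif11, Kif20a, Krt14, Ldha, Mcm2, Mdm2, Mpo, Ms4a1, Myc, Ngp, Nid1, Oca2, Pcna, Pgk1, Plk1, Rb1, Shc1, Spry1, Spry2, Top2a, Tyr, Tyrp1, Vegfa and Vim. The number of arrays limits the precision.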

Additional observations from a re-analysis of the deposited data

Results flagged for a closer look

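Within each group, a value was marked where its gap to the nearest other value, divided by the group's range, passed Dixon's critical value. Among 544 groups of values examined, over the genes and list means given above, 34 held such a value, and chance alone marks about 1 group in 20. No explanation was weighed. On iMet array 1, the log2 signal was the lowest and far from the rest for Igfbp2 (2.84). On iMet array 2, the log2 signal was the highest and far from the rest for Eng (10.23), and the lowest and far from the rest for Cdk4 (10.64) and Met (8.39). On iMet array 3, the log2 signal was the lowest and far from the rest for Jun (10.24). On iMet array 4, the log2 signal was the highest and far from the rest for Atp6v0d1 (10.38) and Plk2 (10.48), and the lowest and far from the rest for Cd59a (7.47) and Tnnc2 (3.78). On iMet array 5, the log2 signal was the highest and far from the rest for Lipe (8.24), Mpo (8.44) and Ms4a1 (10.24), and the lowest and far from the rest for Acta2 (9.57). On iMet array 6, the log2 signal was the lowest and far from the rest for Cox6c (12.24), Hgf (6.17), Rb1 (6.90) and Serping1 (7.75). Melanocyte array 1 had a log2 signal that was the lowest and far from the rest for Ccl9 (3.02). Melanocyte array 2 had a log2 signal that was the highest and far from the rest for Aurka (10.18), Bub1b (9.38), Cd3e (4.86), Plk1 (9.44), Prc1 (10.09) and the mean of the mitosis markers (9.49), and the lowest and far from the rest for Cd34 (0.35), Cd79b (1.75) and Tyr (0.55). Melanocyte array 3 had a log2 signal that was the lowest and far from the rest for Ccr1 (3.34), Dct (2.18) and Flt3 (5.46). Melanocyte array 4 had a log2 signal that was the highest and far from the rest for Gpx3 (3.13), Kit (4.69) and Myh2 (4.75), and the lowest and far from the rest for Cox5b (11.97).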

How the results depend on the processing

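Leaving out 1 array at a time gave 1163 to 1313 genes higher and 1227 to 1537 lower, and a Met difference of 0.84 to 1.46. The Met difference was also not called with each array centred on its median (1.02), with no filter on dim genes (1.18), without melanocyte arrays 1 and 3 (0.45), with the replicate block (1.05) or with macrophage and endothelial means as covariates (3.10). With keratinocyte and fibroblast means as covariates 648 genes were called higher and 590 lower, and with macrophage and endothelial means 4 and 8. With the replicate number of the titles as a block 1158 genes were higher and 1212 lower; deviations of same-numbered arrays correlated at 0.060, −0.033, −0.022 and −0.060, so the numbers do not pair the arrays. As deposited, 55% of called genes were higher. Calls gained by named genes were Adm, Flt3, Ngp and Slc4a1 with the values as deposited. Centring each array on its median added Adm, Atf4, Cdkn1a, Grb2, Slc45a2 and Slc4a1. The 10 arrays alone added Flt3, Pgam1, Slc45a2 and Slc4a1. Leaving out melanocyte arrays 1 and 3 added Adm, Col1a1, Jun and Pgam1, and leaving out 2 and 4 added Atf4, Cdkn1a and Lig1. The replicate block added Adm. Keratinocyte and fibroblast covariates added Cdkn1a, and Col1a1 as lower. Among named genes, calls were lost with the values as deposited for Acta2, Atf3, Ccne1, Cdkn2b, Chaf1b, Cox6c, Hsd17b7, Hsp90b1, Jag2, Lss, Mvk, Pdia6, Pmel, Polr1a, Sos1 and Tfeb, with each array centred on its median for Bub1b, Ccnd1, Cox6c, Gnl3, Hsp90b1, Kif11, Pdia6, Prc1, Tgfbr1 and Top2a, with the mean of all probe sets for Cdkn2b, Hsp90b1, Jag2, Kif11, Mvk, Notch2, Nr4a2, Pdia6, Sesn1, Tgfbr1 and Zeb1, with no filter for Acta2, Atf3, Bub1b, Cdkn2b, Chaf1b, Cox6c, Etv4, Gnl3, Hsd17b7, Itga9, Jag2, Kif11, Krt14, Lss, Mcpt4, Mvk, Rrm2, Sos1 and Top2a, with the 10 arrays alone for Atf3, Cdkn2b, Chaf1b, Cox6c, Etv4, Gnl3, Hsd17b7, Id1, Jag2, Krt14, Lipe, Mcpt4 and Rrm2, without melanocyte arrays 1 and 3 for Acta2, Aen, Atf3, Bub1b, Ccne1, Cdkn2b, Col12a1, Cox5b, Cox6c, Fos, Fst, Fzd2, Fzd8, Heyl, Hsd17b7, Hsp90b1, Itgax, Kif11, Krt1, Krt14, Lss, Mcpt4, Mvk, Myh1, Myh2, Myl9, Ncam1, Ndufb8, Ndufs3, Notch2, Nr4a1, Pdia6, Pes1, Plk2, Pola1, Prc1, Ptpn11, Sesn1, Slc16a3, Snai2, Sos1, Tagln, Tfeb, Tgfbr1, Tnnt3, Top2a, Trib3, Ttk and Ttn, and without melanocyte arrays 2 and 4 for Acta2, Adam12, Alcam, Cd83, Chaf1b, Cox6c, Etv4, Etv5, Fmod, Fos, Gnl3, Hsp90b1, Id1, Itga3, Itga9, Itgax, Itgb4, Jag2, Krt1, Krt14, Krt5, Lipe, Lss, Ltbp1, Mcpt4, Mdm2, Mmp3, Mvk, Myh1, Myh2, Myl9, Ndufb8, Nr4a2, Pdia6, Perp, Pes1, Pmel, Ptpn11, Rab38, Rrm2, Slc16a3, Smad7, Snai2, Sos1, Spint2, Tfeb, Tgfbr1, Tnnt3, Trp63, Usp18, Vcam1 and Zfp36. Of 214 named genes called without covariates, 86 lost their call with keratinocyte and fibroblast means and 8 more turned in sign. The replicate block lost 29 of the 214 calls, and macrophage and endothelial means lost 147 and turned 65. Signs that turned with keratinocyte and fibroblast means as covariates were Chaf1b 0.23, Col1a1 −1.14 (not called without them), Col3a1 −0.55, Etv4 −0.15, Gnl3 −0.18, Id1 0.083, Itgb4 0.22, Jag2 0.24 and Mdm2 0.16. Signs that turned with macrophage and endothelial means, where standard errors grew 5.87-fold, were Acp5 −0.034, Adam12 −0.32, Aen 0.15, Basp1 4.12, C1qb −0.70, C3ar1 −0.36, Ccl12 −5.20, Cd74 −3.58, Cd83 −9.11, Cdkn2b 0.076, Cfp −1.77, Chaf1b 2.34, Col3a1 −1.46, Csf1r −5.24, Emcn −0.17, Fgfr1 −0.42, Gnl3 −0.88, H2-Aa −5.51, H2-K1 −1.42, Icam1 −3.94, Id1 1.72, Irf1 −2.10, Itga9 −5.18, Itgax −8.22, Itgb4 2.31, Kit −3.95, Krt1 −5.60, Lgmn −1.72, Ltbp2 −6.89, Lum −1.09, Lyz2 −1.44, Mcpt4 −6.39, Mdm2 2.42, Mitf −0.90, Mmp3 −3.93, Ncam1 0.67, Ndufb8 0.19, Notch2 −1.04, Notch3 −2.73, Nr4a2 −0.89, Oas1a −1.42, Ogn −2.32, Pax3 0.97, Pdia6 −0.71, Pes1 1.42, Phlda3 0.68, Plk2 0.26, Pola1 −0.24, Psmb8 −6.28, Rrm2 0.92, Serping1 −3.47, Sesn1 −0.82, Smad7 1.87, Snai1 −0.24, Sos1 1.44, Sox10 3.01, Spint2 1.66, Src 1.16, Tgfbr1 −2.12, Tgfbr3 −1.90, Tpsb2 −0.53, Trib3 0.65, Usp18 −1.15, Vcam1 −8.67 and Zfp36 −1.71. The cause was not tested. Genes below the detection level in a group have signals near background, which limits the size of their differences.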
